A study of Mus musculus with 2 samples.

Results

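The horizontal cell genes analysed here were 7 named genes, Calb1, Lhx1, Onecut1, Onecut2, Prox1, Gja10 and Ptf1a, out of 23356 gene symbols in a table of retinal transcript abundance. They were chosen by name as genes known from horizontal cells or from the steps that form them, and the rows of the table carrying those symbols were taken. Each of the 7 was represented by 1 transcript, so that the gene value and the transcript value are the same. RNA came from retinas dissected at postnatal day 15 and sequenced as 1 triple mutant library and 1 control library. The triple mutant retina was homozygous for floxed Dnmt1, Dnmt3a and Dnmt3b and carried Rx-Cre, and the control retina had the same floxed alleles without Rx-Cre. Rx-Cre places Cre recombinase under regulatory sequence of Rx, a transcription factor gene of the early eye field, so recombination is directed to the retinal lineage and horizontal cells are only a small part of it. The strain field reads C57BL/7 for the triple mutant and C57BL/6 for the control, and the sources used here do not give the number of animals behind each library. With 1 library per genotype there was no replicate spread and no test, so the comparisons describe these 2 libraries and do not extend to the genotypes.

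Horizontal cells are interneurons of the outer retina that receive glutamate from photoreceptor terminals and send back inhibitory feedback, which sharpens contrast between neighbouring photoreceptors. In mouse they arise before birth from progenitors that use Foxn4 and then Ptf1a, and the Onecut factors, Lhx1 and Prox1 act in their specification, layering or maintenance. They are few in number, are coupled to each other through gap junctions, and are commonly recognised by calbindin staining.

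Dnmt enzymes methylate cytosine at CpG dinucleotides, so the stretch before the start site is shown for 4 of the genes, Gja10, Lhx1 and Onecut1, which had lower levels in the triple mutant library, and Prox1, whose level was close in both. Each run is the 250 bases before the RefSeq start site on the gene's own strand (GRCm38.p6), and the capitals mark every CpG. The windows are chr4:32602383-32602632 (minus strand) for Gja10, chr11:84525535-84525784 (minus) for Lhx1, chr9:74861671-74861920 (plus) for Onecut1 and chr1:190170828-190171077 (minus) for Prox1.
Gja10: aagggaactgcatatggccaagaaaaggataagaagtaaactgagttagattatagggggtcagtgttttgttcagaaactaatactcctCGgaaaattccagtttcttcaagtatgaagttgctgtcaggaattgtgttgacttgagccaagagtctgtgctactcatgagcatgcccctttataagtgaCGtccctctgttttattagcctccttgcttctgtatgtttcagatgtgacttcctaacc
Lhx1: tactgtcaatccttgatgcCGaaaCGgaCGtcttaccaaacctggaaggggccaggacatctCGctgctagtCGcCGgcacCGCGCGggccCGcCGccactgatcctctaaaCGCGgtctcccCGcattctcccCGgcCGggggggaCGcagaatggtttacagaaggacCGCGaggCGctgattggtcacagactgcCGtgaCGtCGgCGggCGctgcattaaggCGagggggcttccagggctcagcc
Onecut1: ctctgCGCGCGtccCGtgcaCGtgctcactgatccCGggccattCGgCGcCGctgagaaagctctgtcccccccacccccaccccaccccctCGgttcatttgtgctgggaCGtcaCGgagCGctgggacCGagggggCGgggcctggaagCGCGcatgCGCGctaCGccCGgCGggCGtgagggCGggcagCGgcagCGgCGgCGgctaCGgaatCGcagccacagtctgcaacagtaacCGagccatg
Prox1: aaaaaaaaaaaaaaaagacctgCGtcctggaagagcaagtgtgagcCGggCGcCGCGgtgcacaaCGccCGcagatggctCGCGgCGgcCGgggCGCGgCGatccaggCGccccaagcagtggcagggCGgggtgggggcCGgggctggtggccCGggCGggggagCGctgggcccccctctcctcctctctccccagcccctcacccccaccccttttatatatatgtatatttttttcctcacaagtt

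Gja10 stood apart in these windows, with 2 CpGs and a G+C content of 41.2%. Its transcript model is a single exon of 1518 bases. Whether that model begins where transcription starts was not checked, so its window may not be a promoter. Onecut1 had 31 CpGs, Lhx1 26, Prox1 20 and Ptf1a, not printed, 19. Over 32851 such windows of mouse genes the median was 6 CpGs and the quartiles were 2 and 16, so the 4 transcription factor genes were above the upper quartile and Gja10 was at the lower one. A TATAA on either strand was found in the windows of Gja10, Prox1 and Ptf1a and in 22.8% of all windows. ATCAAT on either strand, a form of the core bound by Onecut proteins, was in none of the 5 windows and in 6.72% of all. These are descriptions of sequence, since methylation was not measured in the data analysed here.

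**Figure D1:**
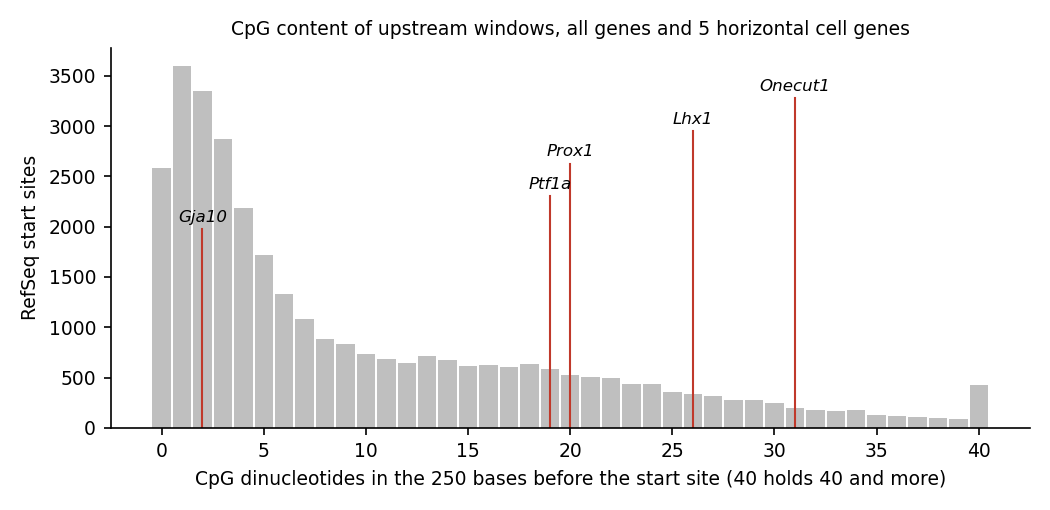
Number of RefSeq start sites (vertical axis) by the number of CpG dinucleotides in the 250 bases before them (horizontal axis), for 32851 windows in grey, with red lines at the 5 horizontal cell genes for which a window was read. Gja10 lies at 2 CpGs, near the mode of all genes, and Ptf1a, Prox1, Lhx1 and Onecut1 lie between 19 and 31.

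The targeted genes were checked first. Dnmt1 had 11.6 FPKM (fragments per kilobase of transcript, scaled to library size) in the triple mutant library and 21.7 in the control, Dnmt3a had 56.0 and 87.4, and Dnmt3b, low in both, had 0.827 and 1.03. All were lower in the triple mutant library and none was near 0. These values cover whole transcripts, and how much of each floxed stretch was lost was not measured. By the spacing of the lowest values, 1 FPKM corresponded to 56.8 fragments per kb of transcript in the triple mutant library and 48.7 in the control. Ranges in brackets below are 95% intervals from those fragment numbers, and cover counting error only.

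Among the 7 genes, Calb1 and Gja10 had the largest differences. Calb1 stood at 48.3% of the control level in the triple mutant library and Gja10 at 44.6%, Lhx1 and Onecut1 at 70.4% and 72.5%, and Prox1 and Onecut2 above the control level, at 105% and 122%. Ptf1a was at the detection limit in both. A gene counted as measured when it reached 1 FPKM in at least 1 library, which 6 of the 7 did, and as lower or higher when log2 of the ratio of triple mutant to control, after adding 1 FPKM to each, was at least 1 in size. By that rule 1 of the 6, Calb1, was lower and 0 were higher. Over all 13280 measured genes 0.648% were lower and 1.84% were higher. Of the 6, 4 had a log2 ratio below 0, against 50.0% of all measured genes, and their median was -0.37, where the median of all was 0.00 and the quartiles were -0.16 and 0.15.

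The genes of specification come first. Ptf1a (NM_018809, chromosome 2, 19445663 to 19447501, plus strand, mm10) encodes a bHLH transcription factor that commits progenitors to horizontal and amacrine fates and is switched off as these cells mature. It had 0.0131 FPKM in the triple mutant library, which is what 1 fragment is worth on this transcript, and was listed at 0 in the control. A count of 0 there allows up to 0.0459 FPKM, so no difference was detectable at this depth and no ratio is given.

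Onecut1 and Onecut2 encode related cut-homeodomain transcription factors that act together upstream of Lhx1 and Prox1 in mouse horizontal cells and are also made in ganglion cells and in cone precursors. Onecut1 (NM_008262, chromosome 9, 74861921 to 74889647, plus strand) had 2.28 FPKM in the triple mutant library and 3.15 in the control, 72.5% of the control level (60.3 to 87.4), from 215 and 254 fragments. Onecut2 (NM_194268, chromosome 18, 64340364 to 64398488, plus strand) had 1.32 FPKM in the triple mutant library and 1.08 in the control, 122% of the control level (111 to 135), from 993 and 696 fragments. The pair thus lay on opposite sides of equality, with intervals that did not overlap. On the log2 scale their ratios were -0.34 and 0.16, both short of the size rule. The third relative, Onecut3, had 1.36 FPKM in the triple mutant library and 2.17 in the control, 62.9% (54.7 to 72.5), closer to Onecut1 than to Onecut2.

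Lhx1 encodes a LIM-homeodomain factor that places horizontal cells in their layer, and among retinal neurons it is known mainly from horizontal cells. Lhx1 (NM_008498, chromosome 11, 84519379 to 84525534, minus strand) stood at 3.20 FPKM in the triple mutant library and 4.54 in the control, 70.4% of the control level (62.3 to 79.8), from 470 and 572 fragments. Its log2 ratio of -0.40 was at rank 1023 from the lowest of 13280 measured genes, a size that many genes had.

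Prox1 encodes a homeodomain factor needed for horizontal cells to form, and is also strong in AII amacrine cells, in bipolar cells, in lens fibres and in lymphatic endothelium. Prox1 (NM_008937, chromosome 1, 190121777 to 190170680, minus strand) stood at 45.7 FPKM in the triple mutant library and 43.6 in the control, 105% of the control level (102 to 108), with a log2 ratio of 0.07. It was the most abundant of the 7 in both libraries and the one with a log2 ratio closest to 0 among the 6 measured.

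Calb1 encodes calbindin, a cytosolic calcium buffer that labels horizontal cells in the mouse and also some amacrine and ganglion cells. Calb1 (NM_009788, chromosome 4, 15881264 to 15906709, plus strand) had 20.5 FPKM in the triple mutant library and 42.5 in the control, 48.3% of the control level (46.2 to 50.5), from 3145 and 5587 fragments. Its log2 ratio of -1.01 stood at rank 82 from the lowest of all measured genes and only just past the size rule.

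Gja10 encodes the connexin that joins horizontal cell dendrites in gap junctions, and is close to specific for horizontal cells in the mouse retina. Gja10 (NM_010289, chromosome 4, 32600865 to 32602382, minus strand) stood at 1.55 FPKM in the triple mutant library and 3.48 in the control, 44.6% of the control level (35.4 to 55.9), from 119 and 229 fragments. The share is below that of Calb1, and the intervals overlap. Its log2 ratio with 1 FPKM added was -0.81, at rank 166 from the lowest, and so short of the size rule, because the added amount weighs more on a low gene. With 0.1 FPKM added it was -1.12.

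**Figure D2:**
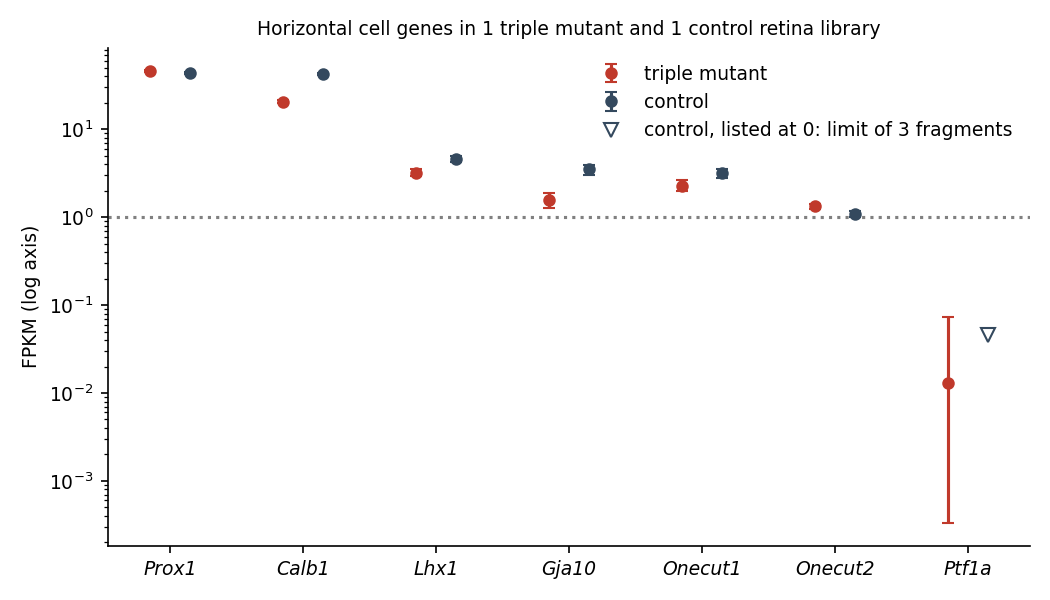
FPKM on a log axis of the 7 horizontal cell genes in the triple mutant library (red) and the control library (dark blue), ordered by control level. Bars are exact 95% Poisson intervals on the recovered fragments and cover counting error only, the dotted line is 1 FPKM, and the open triangle is the limit of 3 fragments for Ptf1a, listed at 0 in the control. Calb1 and Gja10 show the widest gaps, Prox1 is level, and Onecut2 is higher in the triple mutant library.

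By FPKM, which is per length and so depends on the transcript model, the order of the levels differed only in the places of Gja10 and Onecut1. In the triple mutant library it ran Prox1, Calb1, Lhx1, Onecut1, Gja10 and Onecut2, and in the control Prox1, Calb1, Lhx1, Gja10, Onecut1 and Onecut2. In the triple mutant library Gja10 and Onecut2 had overlapping intervals. In the control Prox1 and Calb1 overlapped, as did Gja10 and Onecut1, so a change of order between Gja10 and Onecut1 is not established. Prox1 was thus clearly above Calb1 only in the triple mutant library, at 45.7 against 20.5 FPKM, where the control had 43.6 and 42.5. With only 2 libraries the pattern of a gene is a single ratio, so no genes were ranked by likeness to these.

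The authors' deposited table marks none of the 7 as significant. In that table Calb1 has a p-value of 0.00175 and a q-value of 0.239, and Gja10 has a p-value of 0.128 and a q-value of 0.999. Those values compare 1 library with 1 library, not the genotypes.

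A wider list of 12 other genes of horizontal cell formation, spacing and function was compared next. It was chosen with earlier results of these data known. Of its 12 genes 11 were measured, 0 were past the size rule in either direction, 10 had a log2 ratio below 0, and the median was -0.34. Over all measured genes 0.648% were lower, 1.84% were higher and 50.0% had a log2 ratio below 0. At those shares a count of 0 past the rule does not set the list apart. Foxn4, the progenitor factor upstream of Ptf1a, was below 1 FPKM, at 0.0627 FPKM in the triple mutant library and 0.0293 in the control. Rorb, a nuclear receptor gene that acts with Foxn4, had 38.2 and 41.0 FPKM in that order.

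The AP-2 factor genes Tfap2a and Tfap2b act downstream of Ptf1a in horizontal and amacrine cells. Tfap2a had 16.7 FPKM in the triple mutant library and 19.9 in the control, and Tfap2b had 45.7 and 52.1. Both were within 20% of the control level, at 84.1% and 87.7%. Sall3, a zinc-finger gene used in horizontal cell and cone differentiation, had 1.28 FPKM in the triple mutant library and 2.22 in the control, 57.8% (51.4 to 64.9), the lowest share of the wider list.

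Megf10 and Megf11 encode receptors by which horizontal cells of the mouse keep their spacing. Megf10 had 7.89 FPKM in the triple mutant library and 7.39 in the control, and Megf11 had 7.42 and 9.66. Megf10 was the only one of the 11 above 0 on the log2 scale, at 0.08. Ret, a receptor tyrosine kinase gene expressed in horizontal cells and in some amacrine and ganglion cells, had 10.5 FPKM in the triple mutant library and 15.9 in the control, with the lowest log2 ratio of the wider list, -0.56.

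Slc4a3, an anion exchanger gene, had 34.8 FPKM in the triple mutant library and 51.0 in the control, and the septin gene Sept4 had 81.6 and 116. Their shares of the control level, 68.3% and 70.4%, were near that of Lhx1. Slc32a1, the vesicular transporter gene for GABA and glycine, which amacrine cells share, had 67.9 FPKM in the triple mutant library and 78.4 in the control.

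**Figure D3:**
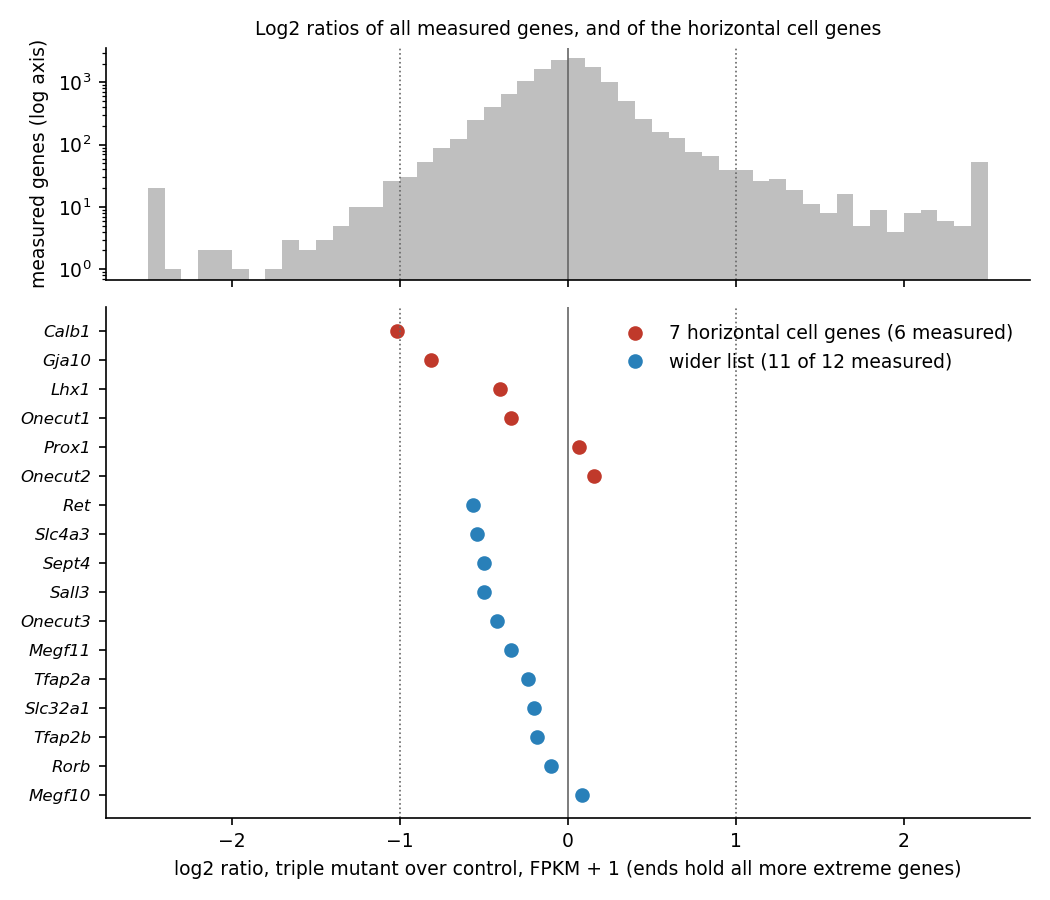
Log2 ratio of triple mutant to control after adding 1 FPKM (horizontal axis): above, the number of measured genes per bin on a log axis, and below, the 6 measured horizontal cell genes in red and the 11 measured genes of the wider list in blue. Dotted lines mark the size rule. Calb1 alone is past it, and 14 of these 17 points lie below 0, against 50.0% of all measured genes. Both lists were chosen with earlier results of these data known.

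Relatives of the genes were compared to see whether a difference was shared by the family. Calb2 and Pvalb, the other measured calcium buffer genes, were both below 0 on the log2 scale and short of the size rule. Calb2, the calretinin gene of amacrine and ganglion cells, had 257 FPKM in the triple mutant library and 387 in the control, 66.3% (65.1 to 67.6). Pvalb, the parvalbumin gene, had 5.26 and 11.1 FPKM, 47.2% (39.8 to 55.8), an interval that overlaps that of Calb1.

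The measured connexins other than Gja10 were close in both libraries. Of 11 listed, 4 were measured, and their log2 ratios ran from -0.14 to 0.11. Gjd2, the main neuronal connexin gene of AII amacrine cells and others, had 65.9 FPKM in the triple mutant library and 72.6 in the control, and its share of 90.9% (88.4 to 93.5) does not overlap the interval of Gja10. Gjc1, another neuronal connexin gene, had 8.65 FPKM in each library. The glial and vascular connexin gene Gja1 had 10.4 FPKM in the triple mutant library and 11.3 in the control, and the vascular Gja4 had 3.54 and 3.22.

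The LIM-homeodomain relatives of Lhx1 lay on both sides of 0. Of 9 listed, 6 were measured, 2 below and 4 above 0, with a median log2 ratio of 0.06. Isl1, used in ON bipolar, cholinergic amacrine and ganglion cells, had 62.5 FPKM in the triple mutant library and 51.1 in the control, and Lhx2, of progenitors and Mueller glia, had 37.4 and 30.8. Lhx3 had 8.45 and 7.87 FPKM in that order, and the bipolar and cone gene Lhx4 had 18.5 and 18.0. Below 0 were Isl2, of ganglion cells, with 4.61 FPKM in the triple mutant library and 5.97 in the control, and Lhx9, with 3.95 and 4.63. The closest relative, Lhx5, was near 0 in both.

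The 5 cut-family relatives were all below 0, against 50.0% of all measured genes, whereas Onecut2 itself was above 0. Cux2 had 8.06 FPKM in the triple mutant library and 12.9 in the control, 62.2% (58.9 to 65.7). Cux1 had 33.4 and 36.7 FPKM in that order, and Satb1 8.13 and 9.46. The 5 relatives, Onecut3 included, had a median log2 ratio of -0.34.

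Since several of the 7 genes are made in other cells, the markers of those cells were read beside them. Fewer cells of a type and less RNA per cell cannot be told apart in RNA from whole retina. Over all measured genes 50.0% were below 0 on the log2 scale. All 11 ganglion cell markers were below 0 (median -0.56), and their summed level was 700 FPKM in the triple mutant library and 1042 in the control. Slc17a6, the glutamate transporter gene of ganglion cells, had 16.2 and 27.7 FPKM in that order. Of 16 measured amacrine markers 13 were below 0, with a median of -0.21 and sums of 834 and 1067 FPKM. Chat, of cholinergic amacrine cells, had 3.44 FPKM in the triple mutant library and 7.41 in the control, 46.5% (41.7 to 51.8). The part of these or other cells in the values of the 7 genes, of the wider list and of Calb2 was not tested. Among the 7, Gja10 and Lhx1, known mainly from horizontal cells, had 44.6% and 70.4% of the control level. Calb1 and Onecut1 had 48.3% and 72.5%, and Prox1 and Onecut2 had 105% and 122%.

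The cone markers matter because Onecut factors and Sall3 also act in cones. Of 12 measured, 11 were below 0 on the log2 scale and 1 was above, with a median of -0.83. By the size rule 4 were lower and 0 higher. Over all measured genes 50.0% were below 0, 0.648% were lower and 1.84% were higher. Opn1sw, the short-wave opsin gene, had 45.0 FPKM in the triple mutant library and 177 in the control. Thrb, a cone gene with an enhancer bound by Onecut1 in the chick, was chosen after its values were seen. Its link to Onecut1 was not tested here. Thrb had 17.9 and 18.1 FPKM in that order. Those are sums over 2 transcripts, which were not read apart here. Bipolar markers, 9 of 10 above 0, had a median of 0.16. Rod markers (7 measured, median -0.04) and Mueller glia markers (7 measured, median 0.15) had 0 genes past the size rule.

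Lens, a tissue that makes Prox1, differed strongly between the libraries. All 12 measured lens markers were lower by the size rule, against 0.648% of all measured genes. Their sums were 12.5 FPKM in the triple mutant library and 238 in the control, with Cryaa at 0.192 and 55.7. Pigment epithelium markers had 8 of 9 lower by the same rule, with sums of 7.08 and 135 FPKM in that order. Dissection and genotype cannot be told apart as sources of the lens and pigment epithelium differences, with 1 library of each genotype. Prox1 had 45.7 FPKM in the triple mutant library and 43.6 in the control, beside these lists, and the part of lens RNA in its control level was not tested. The endothelial markers (6 measured, median -0.11), among them the lymphatic receptor gene Flt4 at 1.35 FPKM in the triple mutant library and 2.28 in the control, had 0 past the rule.

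**Figure D4:**
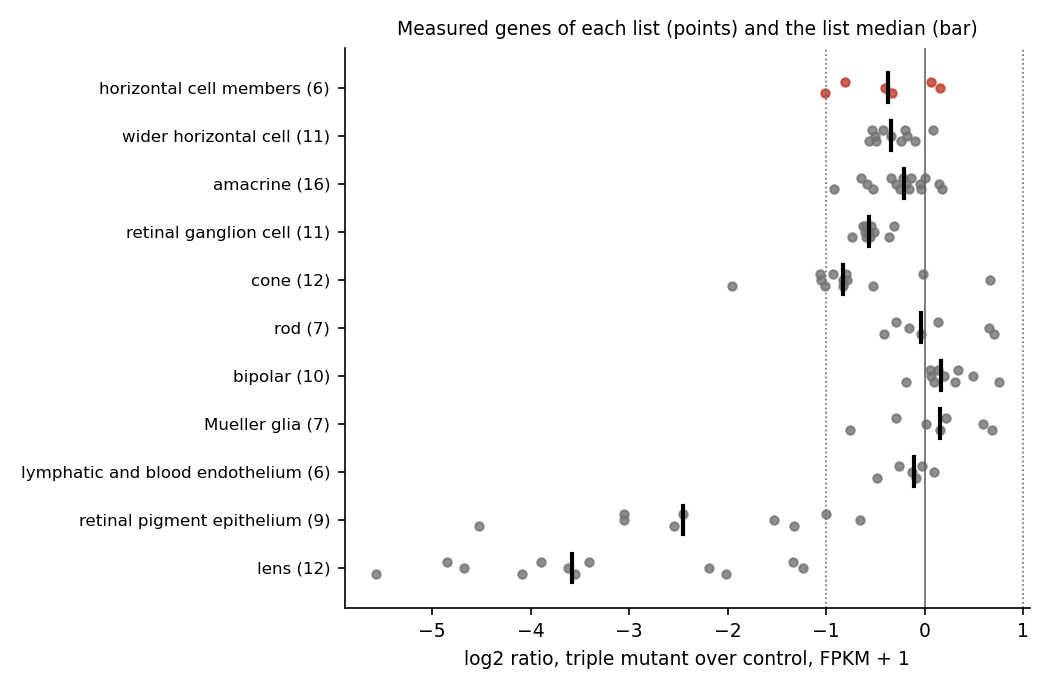
Log2 ratio of triple mutant to control after adding 1 FPKM for each measured gene (points) of the horizontal cell lists and of lists for other cells of the eye, with the number measured in brackets and the list median as a black bar. Dotted lines mark the size rule. The horizontal cell medians of -0.37 and -0.34 lie between those of the amacrine (-0.21) and ganglion cell (-0.56) lists, and the lens list lies far below at -3.59.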

How the data were processed

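The deposited values are FPKM per transcript in 1 triple mutant and 1 control library, as estimated by the authors, per the file headers. Per the submitters' processing notes, TopHat2 2.0.8, Cuffdiff 2.1.1 and mm10 were used; the sources used here give no read layout, strand or annotation. The authors' deposited log2 fold change, p-value and q-value columns were used only where named.

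Gene FPKM was the sum of its rows in the table that carries symbols (30608 rows). Genes needed at least 1 transcript of status OK, none failed (6 genes left out), and 1 FPKM in at least 1 library, or 13280 genes. Ratios used a pseudocount of 1 FPKM, which understates the ratio of low genes. There was no test between the libraries.

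FPKM steps gave fragments: of low values (up to 6 fragments, genes with 1 transcript, lengths from 300 bases), 737 of 742 in the triple mutant and 702 of 712 in the control were whole multiples within 5% of a step, with 165 bases subtracted from each length, a value chosen to maximise this. Lengths were GENCODE M21 exons within the authors' locus. Intervals on ratios are exact binomial (Clopper-Pearson). Floors are 3 fragments. Upstream windows are from RefSeq (GRCm38.p6) and were read for 5 of the 7 genes. Onecut2 was left out because windows on chromosome 18 were not read for these genes, and Calb1 had no window. The start site of the Prox1 window lies 147 bases from that of the authors' model. Gene spans are the authors' loci.

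The genes and lists were chosen with earlier results of these data known. Named were the 7 genes, every gene of the wider list, relatives of at least 1 FPKM, and up to 3 genes with the largest ratios from each cell type list; Thrb and the unmeasured Lhx5 were chosen after their values were seen. A few listed genes enter the counts and medians but are not reported here by name. Prox1os and Gm28172 overlap Prox1 on the other strand, Ptf1aos overlaps Ptf1a, and Gm20649 overlaps Onecut1 on the same strand; these were not analysed here, and their fragments cannot be told apart from the genes' own. Python 3.11.15, pandas 2.3.3 and scipy 1.17.1 were used.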

Additional observations from a re-analysis of the deposited data

How the results depend on the processing

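The count of horizontal cell genes past the size rule rests on Calb1 lying at the threshold. It was 2 with a pseudocount of 0.1 (Calb1 and Gja10), 0 with 5, and 0 in the authors' other table, where the log2 ratio of Calb1 was -0.96; the share of all genes lower was then 1.36%, 0.248% and 0.533%. The median of the measured horizontal cell genes was -0.47 with a pseudocount of 0.1, -0.19 with 5, -0.34 without the filter on low values, -0.47 for the 2 genes of at least 5 FPKM and -0.32 in the other table. The median of the wider list was -0.38, -0.20, -0.29, -0.24 and -0.28 in the same settings, and -0.36 with the single most abundant transcript per gene. The other table shifts the median of all genes by 0.06. No alternative run changed the sign of a log2 ratio among the 6 measured genes; that of Gja10 ranged from -1.12 to -0.37. No paired analysis was possible because there was 1 library in each group. With 1 library each, variation between animals is unknown and the fragment intervals do not cover it.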

Other observations

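The measured genes of the list of bHLH relatives of Ptf1a and its cofactors all had log2 ratios above 0, with a median of 0.21, and 0 of the 6 measured met the size rule. Over all measured genes 50.0% were below 0, 0.648% were lower by the rule and 1.84% were higher. Neurog2, a proneural gene of progenitors and some bipolar cells, had 3.96 FPKM in the triple mutant library and 2.105 in the control, 188% of the control level (160 to 223). Neurod4 had 100 FPKM in the triple mutant library and 77.9 in the control, Neurod1, of photoreceptors, 252 and 213, and Neurod2 9.80 and 8.52. Rbpj, the partner of Ptf1a in its DNA-binding complex, had 5.65 and 5.21 FPKM in the same order, and its relative Rbpjl was near 0 in both, at 0.00768 and 0.00898 FPKM.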
